A study of Homo sapiens with 6 samples.

Results

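The messenger RNAs of the cytosolic ribosomal proteins were compared between DMSO-treated and BRL-50481-treated MDA-MB-231 cells. Members were chosen by symbol alone. They were the genes whose symbol begins with RPL or RPS directly followed by a digit, together with RPLP0, RPLP1, RPLP2 and RPSA, and the S6 kinases, RPS19BP1, Y-linked copies, hyphenated symbols and pseudogenes were left out. This gave 83 of the 15651 genes in the table, 32 of the small and 51 of the large ribosomal subunit, and all 83 passed the filter on low values. MDA-MB-231 is an established human triple-negative breast cancer (TNBC) cell line, and BRL-50481 inhibits PDE7A, a phosphodiesterase that breaks down cyclic AMP. There were 3 libraries from cells given the DMSO vehicle and 3 from cells given BRL-50481, which the series record calls biological replicates. The treatment text and the study's methods give 50 μM for 72 h, whereas the treatment tag of the same samples gives 5 μM and 48 h, and this conflict was not resolved here. The labels describe oligo-dT selection of the RNA and the series record describes ribosomal RNA depletion.

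Each ribosome carries 1 copy of nearly every ribosomal protein, so a cell makes these proteins in matched amounts, and a free ribosomal protein is unstable. Their messenger RNAs are short, abundant and long-lived, and most begin with a run of pyrimidines, the 5′ terminal oligopyrimidine (TOP) motif, through which mTORC1 and the RNA-binding protein LARP1 control their translation and stability. Ribosome production takes a large part of the transcription of a growing cell, and in breast cancer cells it is tied to MYC and to growth factor signalling.

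The pyrimidine run is the sequence feature that unites these genes, so the start windows of 12 members are shown, each with 10 bases before the annotated RefSeq start and 20 from it on (GRCh38.p14). The first 5 are members with large falls, the next 3 are abundant or not called as changed, and the last 4 lack a long run at the annotated start. Capitals mark the longest run of C and T that covers a base within 5 of the start.
RPL22L1: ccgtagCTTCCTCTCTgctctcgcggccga
RPL26: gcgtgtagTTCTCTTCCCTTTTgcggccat
RPL35: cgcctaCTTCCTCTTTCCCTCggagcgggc
RPL9: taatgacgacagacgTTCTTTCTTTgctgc
RPS16: ccctagCTTTCCTTTTCCggttgcggcgcc
RPS18: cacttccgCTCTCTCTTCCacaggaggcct
RPL14: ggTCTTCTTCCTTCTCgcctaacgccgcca
RPL22: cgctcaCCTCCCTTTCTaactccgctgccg
RPL27: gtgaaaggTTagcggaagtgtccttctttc
RPL26L1: ggcggcggccacaaaCCCgcaggcacgccg
RPL7L1: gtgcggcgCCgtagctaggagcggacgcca
RPS27L: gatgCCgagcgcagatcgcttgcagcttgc

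On the plus strand these windows lie at chr6:33272065-33272094 (RPS18), chr3:40457329-40457358 (RPL14), chr17:42998409-42998438 (RPL27), chr5:172958870-172958899 (RPL26L1) and chr6:42879606-42879635 (RPL7L1). On the minus strand they lie at chr3:170870176-170870205 (RPL22L1), chr17:8383174-8383203 (RPL26), chr9:124861938-124861967 (RPL35), chr4:39458903-39458932 (RPL9), chr19:39435930-39435959 (RPS16), chr1:6199576-6199605 (RPL22) and chr15:63157458-63157487 (RPS27L). A RefSeq promoter of 300 bases was at hand for 67 of the 83 members. A run of at least 6 pyrimidines at the start was found in 56 of these 67 (83.6%), against 21.9% of the promoters of all 11501 tested genes that had one. A run of at least 10 was found in 48 (71.6%), against 6.4%, and the median run was 11 bases against 4. Short runs at RPL27 and at 3 of the 12 windows above that belong to paralogs show that the letters at an annotated start are not the same throughout the family. The RPL27 window also ends in a stretch of pyrimidines, which lies more than 5 bases from the start and was not counted. The RefSeq start shown for RPL26L1 lies 544 bases from its GENCODE start.

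Other promoter motifs were counted on both strands of the same 300 bases. The ETS motif CCGGAAG was held by 34.3% of the 67 members and 18.7% of all promoters, and the SP1 motif GGGCGG by 56.7% and 71.7%. The YY1 motif AAGATGGCG was held by 8.96% and 4%, and the E-box CACGTG by 5.97% and 9.87%. Because BRL-50481 acts on cyclic AMP, the cyclic AMP response element TGACGTCA was also searched. It was in 3 member promoters (4.48%, against 3.31% of all), those of RPL3, RPLP2 and RPL18, and its core TGACG, which also lies inside the full element, was in 44.8% against 33.9%. A match is a description of letters and not of binding.

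The libraries held between 30750573 and 33446984 reads on genes, recovered from the normalized counts. The markers of the cell line were as its label has it, with VIM, a mesenchymal filament, at 58840 and CD44, a surface marker of these cells, at 31414 normalized counts in DMSO, and CDH1, the epithelial cadherin, at 38.2. EPCAM was at 764 and ERBB2, the gene of HER2, at 1677 in DMSO, and the hormone receptor genes ESR1 and PGR were not among the tested genes. The 5 tested markers also moved with treatment, 4 of them higher and 1 lower. CDH1 rose by 1.39, to 99.8 normalized counts, VIM by 0.58, CD44 by 0.47 and ERBB2 by 0.19, while EPCAM fell by 0.16 (limma adjusted p between 2.91e-07 and 0.0468). The part of such a shift in the ribosomal protein values was not tested. DMSO replicate 1 stood apart for the ribosomal protein genes. It was the lowest DMSO library for 82 of the 83 members, the exception being RPL7L1, and lay a median of 0.213 below the mean of the other DMSO replicates on the log2 scale, where the median over all genes was -0.0109.

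Treatment with BRL-50481 was accompanied by lower ribosomal protein messenger RNA in nearly the whole family. The median level of the members, on the log2 scale relative to the mean of the DMSO libraries, was -0.142, 0.09 and 0.0503 in DMSO replicates 1, 2 and 3. It was -0.491, -0.537 and -0.445 in BRL-50481 replicates 1, 2 and 3. The highest BRL-50481 library thus lay below the lowest DMSO library. Gene by gene, limma called 76 of the 83 members lower and 0 higher (p-values under 0.05 after Benjamini-Hochberg adjustment over all genes), against a background of 29.8% of all 15246 tested genes called lower and 28.9% higher. For the 7 members not called, 0 had an unadjusted p-value under 0.05, and edgeR and DESeq2 on the recovered reads also called 76 lower and 0 higher. In 76 members all 3 BRL-50481 values were smaller than all 3 DMSO values, which held for 32.3% of all genes. The median log2 fold change of the members was -0.50, with quartiles of -0.63 and -0.37, against 0.01 over all genes tested, and the median standard error (SE) was 0.0621. Quantile normalization, which gives every library the same distribution of values, left 71 members called lower (29.2% of all genes), with a median of -0.43. A fall of more than 0.5 on the log2 scale was called in 41 members and in 12.1% of all genes. Values are relative to the other RNA of a library, so less ribosomal protein RNA per cell and fewer cells rich in it cannot be told apart.

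**Figure D1:**
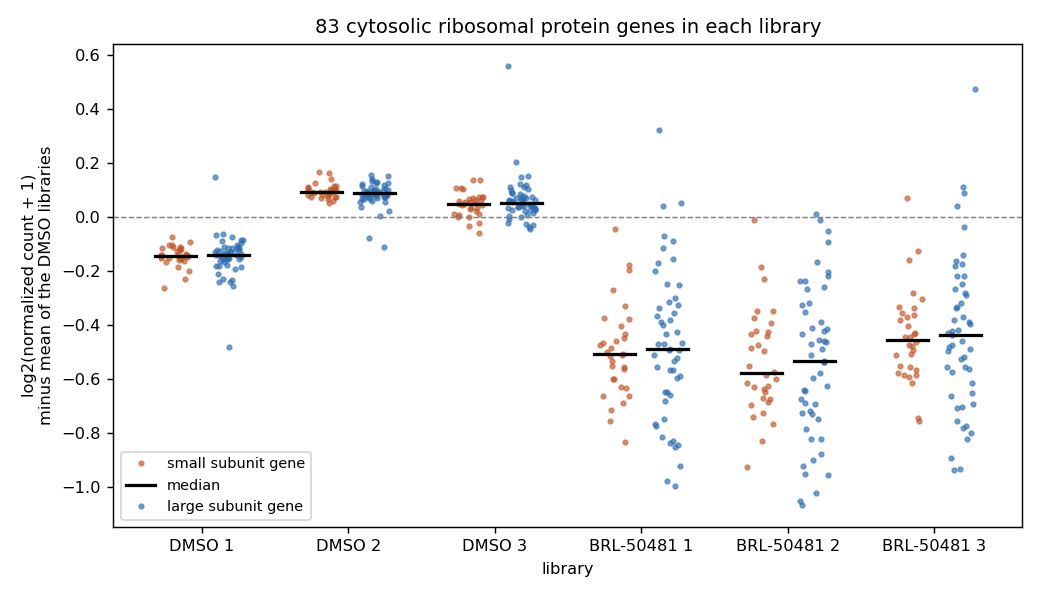
Each point is a ribosomal protein gene in a library, as its log2(normalized count + 1) minus its mean over the DMSO libraries (y axis, log2 units), for small subunit (orange) and large subunit (blue) genes, with bars at the median. The medians lie between -0.143 and 0.0926 in the DMSO libraries and between -0.578 and -0.437 in the BRL-50481 libraries.

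The family took up a smaller share of each treated library. The 83 genes held 4.90%, 5.70% and 5.54% of all normalized counts in DMSO replicates 1 to 3, and 3.93%, 3.85% and 4.06% in BRL-50481 replicates 1 to 3. The groups did not overlap, and the mean fell from 5.38% ± 0.423 to 3.95% ± 0.103 (SD, n = 3), which is 0.733 of the DMSO share. With 3 libraries against 3, an exact permutation test cannot give a p-value below 0.1, so no test of the share is given. Leaving out DMSO replicate 1 made the difference larger, from -1.43 to -1.67 percentage points.

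**Figure D2:**
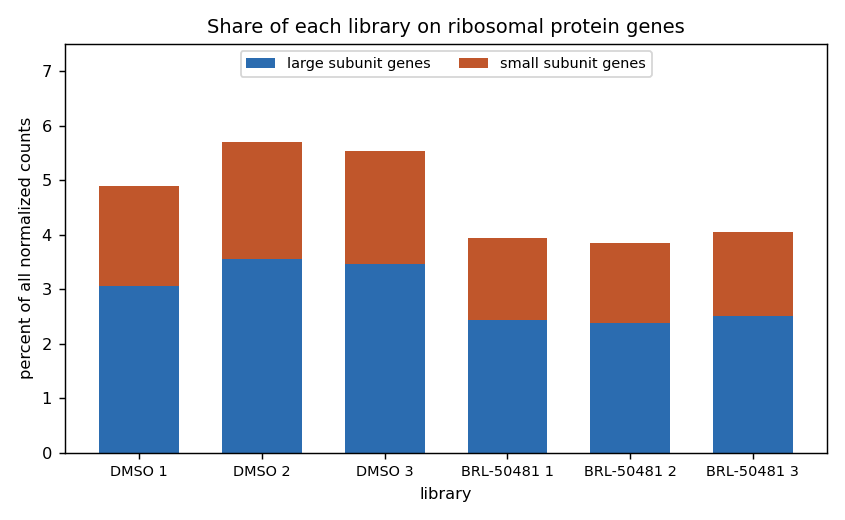
Bars give the percent of all normalized counts in a library that fell on large subunit (blue) and small subunit (orange) ribosomal protein genes, stacked from 0, for each of the 6 libraries. All DMSO bars, from 4.90% to 5.70%, are taller than all BRL-50481 bars, from 3.85% to 4.06%.

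The size of the fall differed widely between genes, and the 6 lowest fold changes were all in large subunit genes. RPL27, a large subunit protein with no counterpart in bacteria, had 32588, 37764 and 36235 normalized counts in DMSO replicates 1 to 3 and 17781.5, 16950 and 18599.5 in BRL-50481 replicates 1 to 3. Its log2 fold change was -0.997 (SE 0.0576, limma adjusted p = 2.24e-08), so that 50.0% of the DMSO level was left. The gene lies on chromosome 17 (hg38, chr17:42998273-43002959, plus strand). Its RefSeq start is shown above as a member without a long pyrimidine run within 5 bases of that start. RPL23, a universally conserved protein at the interface between the subunits, had 34098, 40059 and 39814 in DMSO and 19258, 18659.5 and 20435 in BRL-50481. That is a log2 fold change of -0.96 (SE 0.0621, limma adjusted p = 5.44e-08), and the groups were far apart. RPL26, which sits at the tunnel exit, had 31398, 36056 and 36896 in DMSO and 19335, 17929 and 19629 in BRL-50481, a log2 fold change of -0.87 (SE 0.0613). RPL9, near the site where translation factors bind, and RPL37, a zinc-binding protein, had log2 fold changes of -0.86 and -0.84 (limma adjusted p = 1.38e-07 and 2.33e-07). RPL22L1, the remaining gene of these 6, is described with its paralog. In each of these genes the lowest DMSO value was above the highest BRL-50481 value.

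Among small subunit genes the lowest fold change was that of RPS16, a conserved protein of the head whose tail contacts the tRNA in the P site. It had 34992, 41638 and 40036 normalized counts in DMSO and 21794, 21853.5 and 23182 in BRL-50481, a log2 fold change of -0.80 (SE 0.0605, limma adjusted p = 2.07e-07). Its groups did not overlap. RPS10 and RPS26, 2 genes mutated in Diamond-Blackfan anemia and named here after their values were seen, followed with -0.74 and -0.73. RPS10 was listed at only 546 ± 56.2 (SD, n = 3) in DMSO and shares exon sequence on the same strand with the readthrough gene RPS10-NUDT3, and the part of this overlap in its level was not tested. RPS19, the gene most often mutated in that anemia, had a log2 fold change of -0.65 (SE 0.0637).

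**Figure D3:**
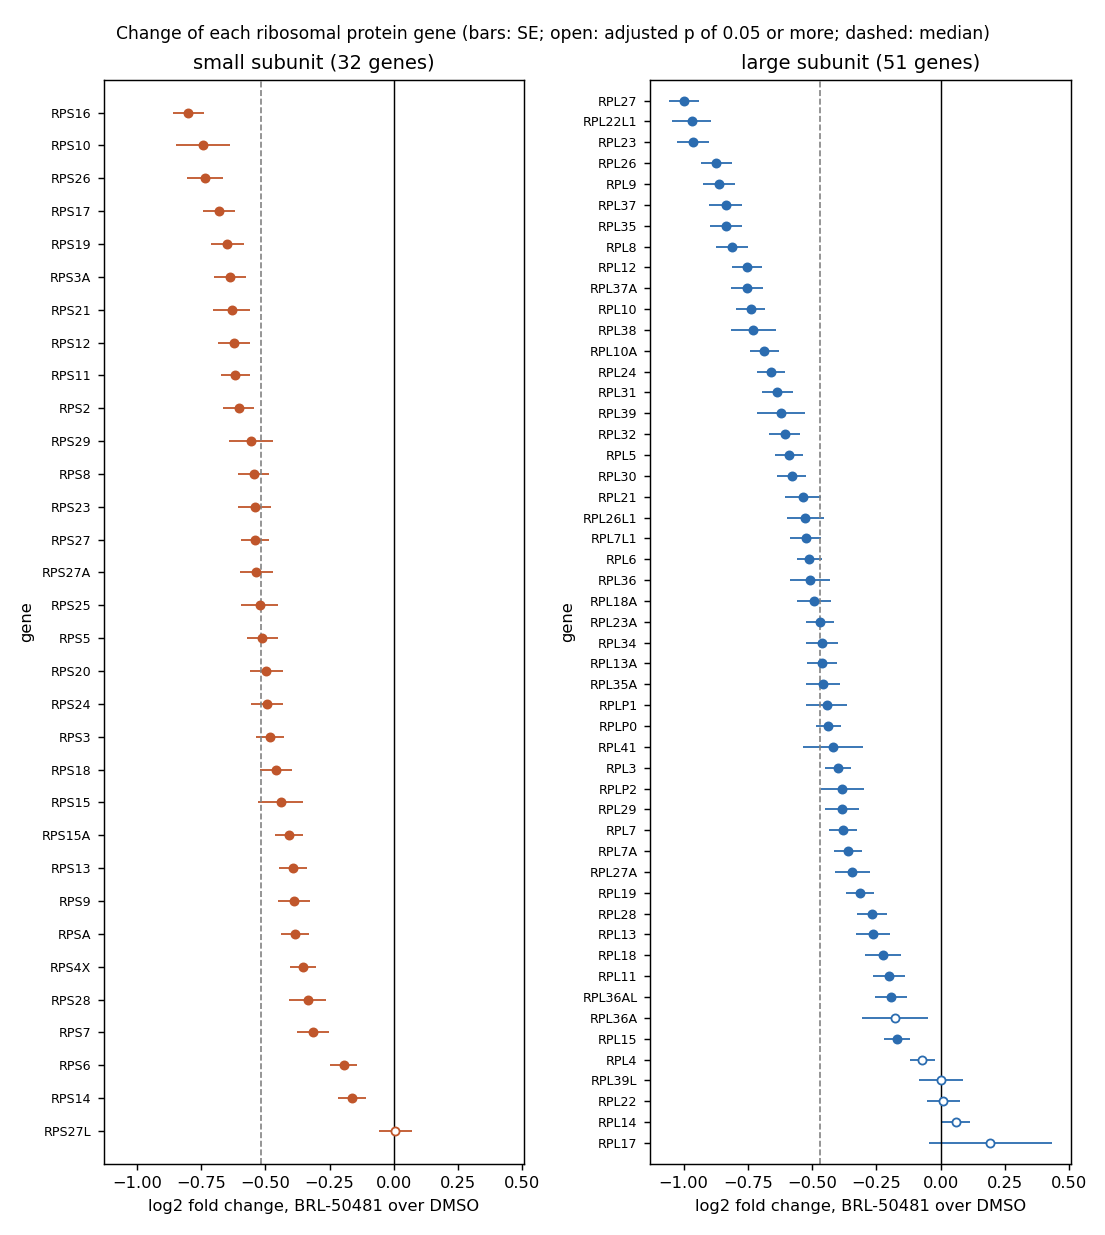
The log2 fold change of BRL-50481 over DMSO (x axis) is drawn for each of the 32 small and 51 large subunit genes, ordered by size, with bars for the SE, open symbols for an adjusted p-value of 0.05 or more and a dashed line at the median of the subunit. Small subunit genes lie between -0.80 and 0.01 and large subunit genes between -0.997 and 0.19.

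The most abundant members fell too. RPL8, a protein close to the peptidyl transferase centre, had the highest DMSO mean, with 55303, 67764 and 63919 in DMSO and 34831, 35161 and 36166 in BRL-50481. Its log2 fold change was -0.81 (SE 0.0636, limma adjusted p = 2.78e-07), and the groups lay far apart. RPS18, at the head of the small subunit, had 53015, 63002 and 61116 against 42420, 41717 and 44482, a log2 fold change of -0.46 (SE 0.0606). RPL13A, which is also known as a regulator of translation outside the ribosome, fell by 0.46 as well, from 51287 ± 4245 to 37166.5 ± 757 (SD, n = 3). RPLP0 and RPL5 complete the 5 most abundant and are described with their complexes. Per kilobase of coding sequence the order was different, with RPS18 at 129000 normalized counts in DMSO and RPL23 at 90500, against 80800 for RPL8. Across the 83 genes, the log2 fold change and the log2 DMSO mean had a Pearson correlation of -0.357 and a Spearman correlation of -0.267, which is a description of genes that share the same libraries. In all, 78 members had a mean of at least 1000 normalized counts.

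Genes of both subunits were lower. The median log2 fold change was -0.52 for the 32 small subunit genes and -0.47 for the 51 large subunit genes, a difference of -0.05. Of them, 31 and 45 were called lower, against 29.8% of all genes. The large subunit genes were spread more widely, with a standard deviation of 0.277 against 0.174. The sum over small subunit genes divided by the sum over large subunit genes was 0.6002, 0.6045 and 0.6022 in DMSO replicates 1 to 3 and 0.6118, 0.6143 and 0.6177 in BRL-50481 replicates 1 to 3. All BRL-50481 ratios were above all DMSO ratios, so the 2 subunits' summed counts did not fall in exact proportion, with a mean of 0.602 ± 0.00207 against 0.615 ± 0.00303 (SD, n = 3). The ratio of sums and the difference of medians thus point in opposite directions, the sums being weighted by the abundant genes. No test of a value summed over members is given. The difference of medians was -0.00266 after a correction for transcript length and GC content and was between -0.0543 and -0.0216 when each library was left out in turn, so its size was not stable.

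Proteins shared by all domains of life and those of eukaryotes or archaea alone were both lower. In all, 29.8% of the tested genes were called lower. Of the 15 universal small subunit proteins 15 were called lower (median log2 fold change -0.48), and of the 18 universal large subunit proteins 16 were, with a median of -0.53. Of the other members that are not paralogs, 16 of 16 small subunit genes were called lower, with a median of -0.54, and 25 of 28 large subunit genes, with a median of -0.46. The ranges of these 4 classes overlapped widely, and no class was tested against another.

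The acidic stalk recruits the elongation factors and is built from RPLP0 and copies of RPLP1 and RPLP2. RPLP0, a common reference gene in quantitative PCR, had 46307, 51546 and 47593 normalized counts in DMSO and 34999, 36166 and 36239 in BRL-50481, a log2 fold change of -0.44 (SE 0.0486, limma adjusted p = 5.92e-06). RPLP1 fell by 0.44 (SE 0.0789, limma adjusted p = 0.000328) and RPLP2 by 0.38 (SE 0.0831, limma adjusted p = 0.00149). In each of the 3 stalk genes the groups did not overlap.

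RPL5 and RPL11 form a particle with the 5S ribosomal RNA and, when free, bind MDM2. RPL5 had 43621, 49606 and 48396 in DMSO and 31879, 30164 and 31937 in BRL-50481, a log2 fold change of -0.59 (SE 0.0532, limma adjusted p = 9.55e-07). Its partner RPL11 had 21670, 25785.5 and 25121 in DMSO and 21013, 20073 and 21875 in BRL-50481. That is a log2 fold change of -0.20 (SE 0.0625, limma adjusted p = 0.0136), and the highest BRL-50481 library lay above DMSO replicate 1. RPL11 was not called under 5 of 18 other settings, among them quantile normalization (-0.07, limma adjusted p = 0.326) and leaving out BRL-50481 replicate 2 (-0.17, limma adjusted p = 0.0751) or DMSO replicate 3 (-0.17, limma adjusted p = 0.0681).

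Other members with known roles outside the bare subunit lay on both sides of the median. RPS6, the substrate of the S6 kinases, had 29368, 33428 and 33145.5 in DMSO and 27865, 27210 and 28576 in BRL-50481, a log2 fold change of -0.20 (SE 0.0535, limma adjusted p = 0.00676). These values sat close together, though without overlap. RPSA, which is also the laminin receptor precursor, fell by 0.39 (SE 0.0539, limma adjusted p = 4.30e-05). RPS27A, made as a fusion with ubiquitin, fell by 0.54 (SE 0.0639, limma adjusted p = 1.10e-05), and RPS4X, encoded on the X chromosome, fell by 0.35 (SE 0.0502, limma adjusted p = 4.94e-05). RPS14, the small subunit gene lost in the 5q- syndrome and named here after its values were seen, fell by 0.16 (SE 0.0543, limma adjusted p = 0.0204). It was called in 10 of 18 other settings, and was lost when DMSO replicate 2 or 3 or BRL-50481 replicate 1 or 2 was left out (limma adjusted p up to 0.0782).

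The members that were not called were RPL4, RPL14, RPL17, RPL22, RPL36A, RPL39L and RPS27L. RPL4, whose loop lines the exit tunnel, had 23857, 26405.5 and 25822 in DMSO and 23854, 23784 and 24695 in BRL-50481, a log2 fold change of -0.07 (SE 0.0482, limma adjusted p = 0.219). The groups overlapped at DMSO replicate 1, and without that library the log2 fold change was -0.115 (limma adjusted p = 0.00306). RPL14, another large subunit protein without a bacterial counterpart, had 16244.5, 18835 and 17757 in DMSO and 18227, 17724 and 18987 in BRL-50481, a log2 fold change of 0.06 (SE 0.0556, limma adjusted p = 0.386). Its groups overlapped as well. RPL17, which lines the exit tunnel, was listed at 109 ± 40.9 (SD, n = 3) under DMSO and 122 ± 28.9 under BRL-50481, with a log2 fold change of 0.19 (SE 0.240, limma adjusted p = 0.509). RPL36A was at 130 ± 9.74 and 115 ± 5.01, with -0.18 (SE 0.128, limma adjusted p = 0.251). RPL17 and RPL36A share exon sequence on the same strand with the readthrough genes RPL17-C18orf32 and RPL36A-HNRNPH2, and the part of this in their low counts was not tested.

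Some paralogs had fold changes unlike those of their partners. In DMSO, RPL22L1 had 2992, 3621.5 and 3693 normalized counts and RPL22 had 3279, 3668 and 3929. In BRL-50481, RPL22L1 had 1807, 1651 and 1787, whereas RPL22 had 3721, 3489 and 3716. RPL22 and RPL22L1 take the same place on the large subunit, and RPL22 is known to repress its paralog. RPL22L1 fell by 0.97 (SE 0.0762, limma adjusted p = 2.89e-07) and RPL22 had a log2 fold change of 0.01 (SE 0.0647, limma adjusted p = 0.906). The log2 ratio of RPL22L1 to RPL22 went from -0.08 ± 0.0577 to -1.06 ± 0.0190 (SD, n = 3).

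In the pairs of RPS27 and RPL39 it was the paralog that did not pass the test. RPS27 fell by 0.54 (SE 0.0544, limma adjusted p = 2.50e-06), while RPS27L had 1417, 1576 and 1575 in DMSO and 1475, 1509 and 1598 in BRL-50481, a log2 fold change of 0.01 (SE 0.0637, limma adjusted p = 0.951). RPL39, a small protein of the tunnel wall, fell by 0.62 (SE 0.0933, limma adjusted p = 8.23e-05), while RPL39L, best known from the testis and from cancer cells, had 603, 732 and 719 in DMSO and 649, 677 and 725 in BRL-50481, a log2 fold change of 0.00 (SE 0.0864, limma adjusted p = 0.988). The groups of both paralogs overlapped. The log2 ratio of RPS27L to RPS27 differed by 0.55 between the groups and that of RPL39L to RPL39 by 0.62.

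In the remaining pairs both genes had fold changes below 0. RPL26L1 had a log2 fold change of -0.53 (SE 0.0720) beside -0.87 for RPL26, and the log2 ratio differed by 0.35. RPL7L1, which resembles an assembly factor of the yeast ribosome, had 7097, 5942 and 6250 in DMSO and 4499, 4418 and 4453 in BRL-50481, a log2 fold change of -0.52 (SE 0.0611, limma adjusted p = 8.88e-06). RPL7 fell by 0.38 (SE 0.0555). RPL36AL fell by 0.19 (SE 0.0622, limma adjusted p = 0.0165) and was not called without DMSO replicate 2 or 3 or BRL-50481 replicate 2 (limma adjusted p up to 0.0885). RPL3 fell by 0.40 and RPL10 by 0.74, and the paralogs RPL3L and RPL10L were not analysed here. The ratio of paralog to partner did not overlap between the groups in 4 of 6 pairs, and an exact two-sided permutation test gave p = 0.1 for each of these 4, the smallest that 3 libraries against 3 can give (adjusted p = 0.15 over the 6 pairs). Near-identical pairs and the many processed pseudogenes (a median of 12 pseudogene symbols per member) can split or lose reads in counting, so levels of such members are uncertain.

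**Figure D4:**
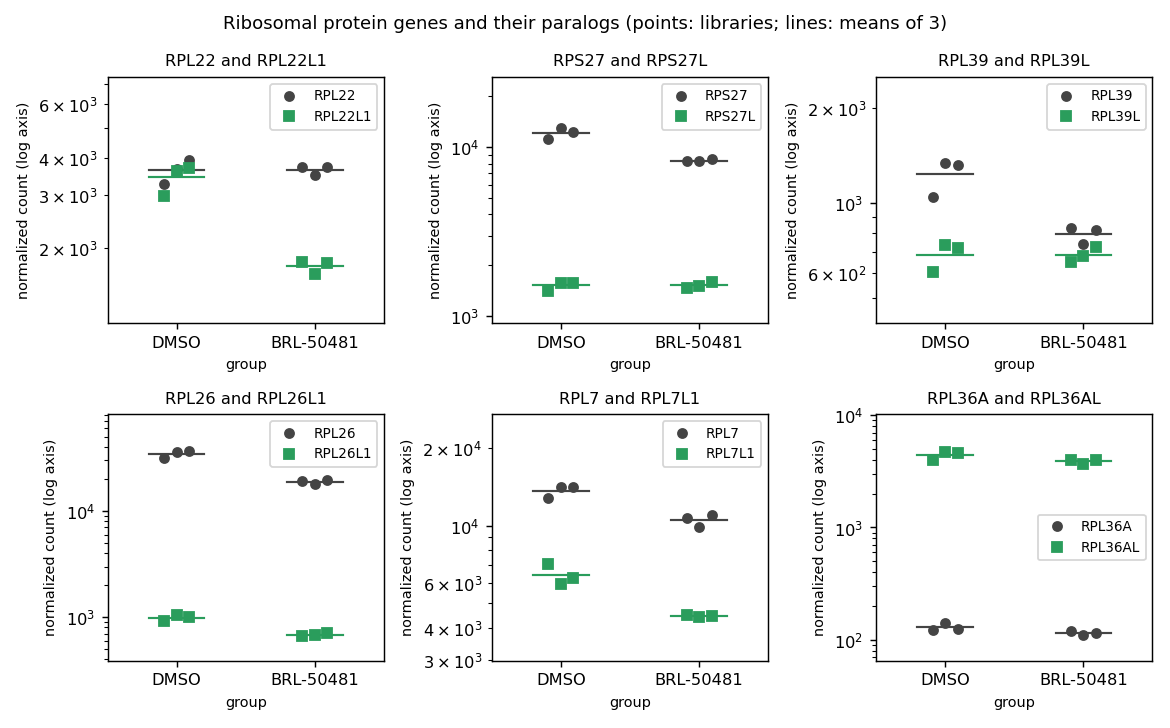
Each panel shows a gene (circles) and its paralog (squares) as normalized counts on a log axis in the 3 DMSO and 3 BRL-50481 libraries, with lines at the means of 3 libraries. RPL22L1 falls from 3435 to 1748 beside RPL22 at 3625 and 3642, and RPS27L (1523 and 1527) and RPL39L (685 and 684) lie beside falling RPS27 and RPL39.

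The transcripts of the members are short. Their median length was 785 bases, whereas the median over all tested genes was 3170.5, and the libraries differed in how a gene's level moved with transcript length. Over all genes, the Spearman correlation of a library's deviation from the gene mean with transcript length was 0.492, -0.427 and -0.241 in DMSO replicates 1 to 3 and 0.175, 0.174 and 0.152 in BRL-50481 replicates 1 to 3. DMSO replicate 1, the lowest DMSO library for the members, thus stood opposite to the others. After transcript length and GC content had been regressed out of each library by a loess curve, the members' median levels were -0.0707, 0.0270 and 0.0327 in DMSO and -0.431, -0.470 and -0.401 in BRL-50481. The corrected comparison called 77 members lower and 0 higher, where 37.5% and 28.3% of all genes were called in these directions, and the median log2 fold change was -0.43. A correction with the coding length in place of the transcript length, added after the data were seen, called 73 lower (37.6% of all genes) and 3 higher (30% of all genes), and the median was -0.38. The 3 were RPL14 (0.14), RPL22 (0.13) and RPS27L (0.14). The sign for RPL14 and RPS27L was thus negative with the transcript length (-0.12 and -0.14) and positive with the coding length, and no direction is given for them. Their annotated transcripts are long for the family, at 7136 and 6110 bases.

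**Figure D5:**
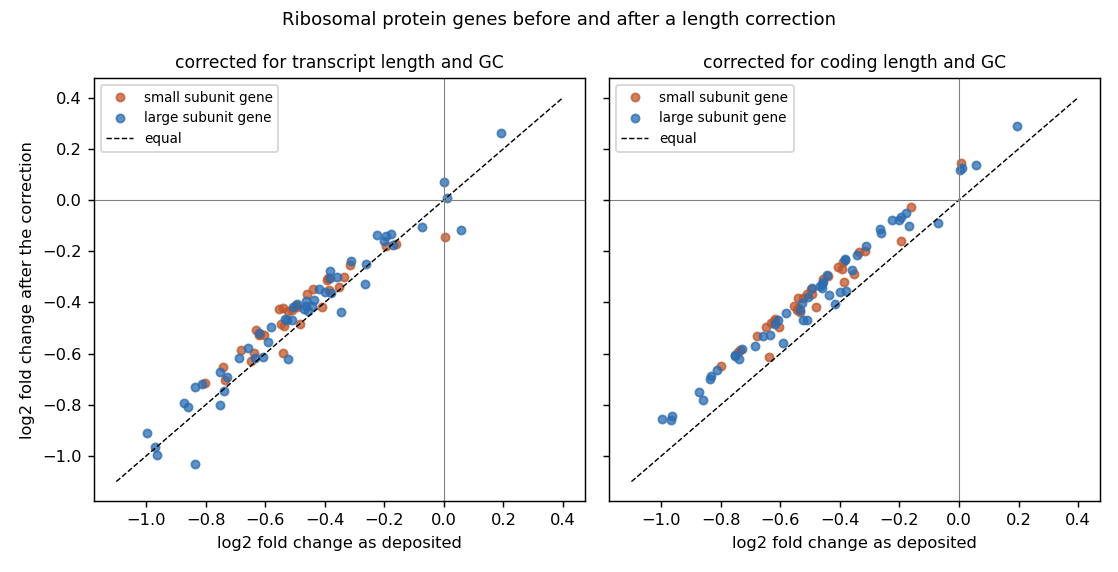
The log2 fold change of each member after a correction for transcript length and GC content (left) or coding length and GC content (right) is plotted against the value without it, with a dashed line of equality. Most points lie a little above the line, and the members' median moves from -0.50 to -0.43 (left) and to -0.38 (right).

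Among the members themselves, the fold change had low positive correlations with length. Over the 83 genes the log2 fold change had a Pearson correlation of 0.216 with log2 transcript length, 0.0811 with log2 coding length and -0.0766 with GC content. The Spearman correlations were 0.247, 0.145 and -0.0143 in the same order. The number of pseudogene symbols, up to 133 for RPL21, had a Pearson correlation of 0.0231 and a Spearman correlation of -0.068. By pyrimidine run, the median log2 fold change was -0.46 for the 48 members with at least 10 bases, -0.59 for the 8 with 6 to 9 and -0.51 for the 11 with fewer. Those 11 include RPS29, RPL26L1 and RPL6. Their RefSeq starts lay 12330, 544 and 320 bases from the GENCODE starts, so their runs may be misplaced. Each of these classes covered a wide range, so that RPL27, with a run of 2 at its annotated start, and RPL22L1, with 10, lay side by side. The RPL27 and RPL15 windows, however, end in a stretch of pyrimidines more than 5 bases from the start, which was not counted. Membership of the class with fewer than 6 thus depends on the annotated start. The genes are scattered over 21 chromosomes, and 28 of them hold small nucleolar RNA genes within their bounds, 60 in all.

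Ribosomal proteins that the symbol rule left out included FAU and RACK1. FAU, a fusion of a ubiquitin-like protein with a small subunit protein, fell by 0.53 (SE 0.0683, limma adjusted p = 2.10e-05). RACK1, listed as GNB2L1 and the signalling scaffold on the small subunit, fell by 0.13 (limma adjusted p = 0.0424).

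Of 19 other messenger RNAs listed for a TOP motif, 12 were called lower and 3 higher (29.8% and 28.9% of all genes), and the median log2 fold change was -0.18. After the transcript length and GC correction 13 were called lower and 5 higher (37.5% and 28.3% of all genes), with a median of -0.35 against -0.04 over all genes. EEF1A1, the most abundant gene of this list, which delivers tRNA to the ribosome, had 219189, 225373 and 220458 in DMSO and 164467, 169285 and 170696 in BRL-50481, a log2 fold change of -0.40 (SE 0.0431, limma adjusted p = 4.52e-06). EIF3K, a subunit of an initiation factor, fell by 0.63 (SE 0.0557). HNRNPA1, a splicing factor, rose by 0.83 (SE 0.0450, limma adjusted p = 1.23e-08). The list thus held genes called in both directions.

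Of 12 chaperones and quality-control factors of free ribosomal proteins, 8 were called lower and 3 higher (29.8% and 28.9% of all genes), with a median of -0.21. The median was -0.33 with the transcript length and GC correction and -0.32 with the coding length and GC correction. Over all genes these medians were -0.04 and -0.03. AAMP, whose yeast relative is a chaperone of newly made Rpl10, fell by 0.79 (SE 0.0551, limma adjusted p = 1.09e-07). HUWE1, a ubiquitin ligase for unassembled ribosomal proteins, had 20545, 14218 and 14877 in DMSO and 27122, 28458 and 27485 in BRL-50481, a log2 fold change of 0.76 (SE 0.102, limma adjusted p = 2.95e-05). NAP1L1, the most abundant of them, had a log2 fold change of -0.09 (limma adjusted p = 0.0877).

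For the genes of the mTORC1, S6 kinase and LARP1 arm, which acts on TOP messenger RNAs, the counts moved with the correction. So did the share of all genes called lower. Of 13, 2 were called lower and 3 higher (29.8% and 28.9% of all genes), with a median of 0.04. With the transcript length and GC correction 5 were lower and 2 higher (37.5% and 28.3% of all genes), with a median of -0.03. With the coding length 5 were lower and 3 higher (37.6% and 30% of all genes), with a median of -0.06. The median over all genes moved too, from 0.01 to -0.04 and -0.03. The sign of the list's median thus turned along with that of all genes, and no direction is given for the list. EIF4EBP1, the repressor of cap-dependent initiation, fell by 0.47 (SE 0.0703, limma adjusted p = 8.38e-05), and TSC2, an inhibitor of mTORC1, rose by 0.36 (SE 0.0662, limma adjusted p = 0.000398). LARP1, the most abundant, had a log2 fold change of 0.07 (limma adjusted p = 0.321). These are RNA levels and not the activity of the kinases. MDM2, the ubiquitin ligase that free RPL5 and RPL11 bind, had a log2 fold change of -0.04 (limma adjusted p = 0.492), and CDKN1A, a cyclin-dependent kinase inhibitor, fell by 0.41 (SE 0.0484, limma adjusted p = 1.10e-05).

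Mitochondrial ribosomal proteins, the most alike group by function, had a smaller median fall. Of 77, 45 were called lower and 2 higher (29.8% and 28.9% of all genes). Their median log2 fold change was -0.26, against -0.50 for the cytosolic family. With the transcript length and GC correction 48 were lower and 6 higher (37.5% and 28.3% of all genes), with medians of -0.25 and -0.43 for the 2 families. With the coding length 42 were lower and 9 higher (37.6% and 30% of all genes), with medians of -0.16 and -0.38. Their library medians were -0.120, 0.0821 and 0.0404 in DMSO and -0.249, -0.289 and -0.252 in BRL-50481, so DMSO replicate 1 was low for them also. MRPS12 fell by 1.09 (SE 0.0793, limma adjusted p = 1.47e-07) and was the lowest called gene. MRPS24 had the lowest fold change, -1.34, but near 5 normalized counts in DMSO, and did not pass the test (limma adjusted p = 0.160). MRPS10, the most abundant, had 6107 ± 154 (SD, n = 3) under DMSO and 6085 ± 127 under BRL-50481, a log2 fold change of -0.01 (limma adjusted p = 0.933). The 2 families' medians were not tested against each other.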

How the data were processed

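Per the labels and the study's methods, STAR 2.7.1a placed the reads (76 bases, single-end) on hg38. Reads per UCSC gene were then counted by htseq-count with its strand option set to reverse, and DESeq2 1.28 supplied a size factor for each library, by which the authors divided the counts. The deposited signal is this normalized count for each gene and library. The deposited table also holds the authors' own fold changes and p-values, which were not used. Every sample column was used (0 left out).

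Divided by the smallest value of its library, every value was whole (100% of values in each library, within 0.01), against 1.48% to 2.58% of the values above 0 as deposited. The values with 1 added were put on the log2 scale and compared with limma 3.58.1 in R 4.3.3 (eBayes with a trend), with the groups as the only term, over the 15246 genes with at least 4 in 3 samples. P-values were adjusted by the Benjamini-Hochberg method over all genes tested, and genes were called under 0.05. The p-values measure the spread between these libraries. Residual SDs of log2 values were 0.0964 to 0.141 for DMSO libraries and 0.0791 to 0.0832 for BRL-50481 libraries. Counting error is widest for RPL17 and RPL36A, the members near 100 counts.

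Transcript length, coding length and GC content came from GENCODE release 44 canonical transcripts, which matched 96.4% of genes and all 83 members. Starts and promoters came from RefSeq (GRCh38.p14). Alternatives were edgeR 4.0.16 (quasi-likelihood with TMM) and DESeq2 1.42.0 on the recovered reads, pseudocounts of 0.5 and 4, no filter, a mean of at least 20, quantile normalization, median centring, no trend, the replicate number as a block, loess corrections of span 0.5, and leaving out each library. The procedure was tested on simulated counts in which few genes changed, equally in both directions, with the same dispersion for every gene and library. In these data 29.8% of genes were called lower and 28.9% higher, and the libraries differed in spread. The simulation therefore cannot measure how well the calls hold here.

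Members and lists were chosen with earlier results of these data known. The members named are the 6 lowest, the 6 highest and the 5 most abundant, the stalk genes, RPL5, RPL11, RPS6, RPSA, RPS27A, RPS4X, the paralog pairs and every member not called. Of each related list, the 2 largest changes and the most abundant gene are named, except that some list genes are not reported here. Others were named after their values were seen, and so was the test of paralog ratios added. Files were handled with Python 3.11.15, numpy 2.4.6 and matplotlib 3.10.9.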

Additional observations from a re-analysis of the deposited data

How the results depend on the processing

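Of the 83 members, 68 were called lower under all 18 alternatives and 77 had a log2 fold change below 0 in each, the other 6 being RPL4, RPL14, RPL17, RPL22, RPL39L and RPS27L. The matching shares of all genes were not computed. In the main comparison 29.8% of all genes were called lower. The calls of RPL11, RPL13, RPL15, RPL18, RPL36AL, RPL41, RPS6 and RPS14 were lost under at least 1 alternative, and the cause was not tested. The number called lower ranged from 68 (limma without a trend) to 77. Quantile normalization called 1 member higher (RPL14, 0.14, adjusted p = 0.0351) and gave a small minus large difference of medians of -0.0223. That difference was -0.00266 with the length and GC correction. With the coding length and GC correction, added after the data were seen, 3 members were called higher, the small minus large difference was -0.0115, and the medians were -0.38 over all members, -0.383 for small and -0.371 for large subunit genes. Among the 75 members without an annotated exon overlap on the same strand, also counted after the data were seen, 71 were called lower (29.8% of all genes).

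Leaving out each library in turn gave 72 to 77 members called lower and 0 higher, medians of -0.567 to -0.451 over all members, -0.590 to -0.476 for small and -0.538 to -0.422 for large subunit genes, a small minus large difference of -0.0543 to -0.0216, and a share difference of -1.67 to -1.27 percentage points. Over all genes, 4011 to 4912 were then called lower and 3709 to 4868 higher.

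The replicate numbers pair nothing, since the correlations of same-numbered libraries' deviations were 0.0157, 0.000299 and -0.0172. With the replicate number as a block, 76 members were called lower and 0 higher, and 4589 genes lower and 4440 higher in all.

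By read depth, counting error is small for the 78 members with a mean of at least 1000. The calls lost on leaving out a library, those of RPL11, RPL18, RPL36AL and RPS14, were all in such abundant members.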

Other observations

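Some genes that the symbol rule left out lie close to the family. Of 15 ribosomal protein pseudogenes tested, 4 were called lower by limma (29.8% of all genes). Of the 11 not called, 7 had a log2 fold change below 0 and 4 above it, between -1.27 and 0.35. In the 4 called, the log2 fold change was -0.51 for RPL13AP20 (limma adjusted p = 0.00936), -0.53 for RPL13AP5 (limma adjusted p = 0.0114), -0.48 for RPL23AP7 (limma adjusted p = 0.00592) and -1.14 for RPS14P3 (limma adjusted p = 0.00210), all at 211 normalized counts or fewer in DMSO. The S6 kinase genes went both ways, with 3 of 10 called higher and 5 lower (28.9% and 29.8% of all genes). The 2 not called were RPS6KA3 at 0.00 and RPS6KA6 at 0.13. RPS6KA2, an RSK kinase, had 1605, 1378 and 1442 normalized counts in DMSO and 2434, 2479 and 2506 in BRL-50481, a log2 fold change of 0.75 (SE 0.0631, limma adjusted p = 5.38e-07). RPS6KB1, the main kinase of RPS6, rose by 0.26 (limma adjusted p = 0.00267), while its relative RPS6KB2 fell by 0.30 (limma adjusted p = 0.00202). RPS6KC1 rose by 0.39 (limma adjusted p = 0.000387), and RPS6KA1 and RPS6KL1 had log2 fold changes of -0.30 and -0.58 (limma adjusted p = 0.000765 and 0.000342). RPS6KA4 fell by 0.29 (limma adjusted p = 0.00157) and RPS6KA5 by 0.38 (limma adjusted p = 0.00170). RPS19BP1, which binds RPS19, fell by 0.51 (limma adjusted p = 0.000139). These genes were named after their values were seen.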
